A study of Mus musculus with 4 samples.

Results

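The genes described here encode the core machinery that shortens the poly(A) tail of an mRNA, removes its cap and degrades what is left. They are the CCR4-NOT subunits *Cnot1*, *Cnot2*, *Cnot3*, *Cnot6*, *Cnot6l*, *Cnot7* and *Cnot8*, the decapping genes *Dcp1a* and *Dcp2*, and the exonuclease gene *Xrn1*. They were chosen by symbol, 10 of the 48587 genes in the count table, and all 10 were among the 18916 genes with enough counts to be tested.

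RNA was measured in primary vascular smooth muscle cells (VSMCs) grown out of the descending aorta of young adult C57BL/6J mice. Every culture received a lentivirus. The shMettl14 cells carried a hairpin against *Mettl14*, the partner of the methyltransferase that writes N6-methyladenosine (m6A) into mRNA, and the shCTR cells carried a nontargeting hairpin directed at a plant microRNA in a vector that also encodes GFP. Each group had 2 poly-A-selected, paired-end libraries, marked A and B, and the comparison asks how loss of Mettl14 alters the transcriptome of VSMCs. Neither the labels nor the methods say whether A and B were separate animals or cultures, or whether a letter marks cells shared by both hairpins, so p-values measure only the spread between these libraries, which may be technical.

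CCR4-NOT is the main cytoplasmic deadenylase of animal cells. It is built on a long scaffold protein and carries a pair of catalytic subunits, each of which comes in alternative, paralogous forms. Once the tail is short, Dcp2 and its activators remove the cap and Xrn1 digests the body of the message from its exposed end. This machinery is known to be brought to m6A-marked mRNA by the reader Ythdf2, which contacts Cnot1, so it acts downstream of the mark that Mettl14 helps to write.

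The libraries held between 114343653 and 124815868 counts. *Mettl14* had 18.0 and 19.9 normalized CPM (counts scaled to library size with TMM factors) in shCTR A and B, against 4.60 and 4.37 in shMettl14 A and B, so that 23.6% of the control mean was left. Its log2 fold change was −2.08 ± 0.25 (SE). The edgeR quasi-likelihood test gave it an unadjusted p of 0.00039, the lowest of all genes, but an adjusted p of 0.99997, and DESeq2 gave it an adjusted p of 2.02e-09. All 7 smooth muscle markers were detected, led by *Acta2* at 2073 to 3547 CPM, and the list summed to 6798 and 5765 CPM in shCTR A and B and to 4441 and 4804 in shMettl14 A and B. The 6 endothelial markers summed to 1183 and 1814 CPM in shCTR A and B and to 1238 and 1331 in shMettl14 A and B. Most of it was *Pecam1* at 477 to 820 CPM and *Cdh5* at 508 to 818, followed by *Tie1* at 134 to 171. *Kdr*, *Tek* and *Vwf* were far lower, at 5.04 to 18.9 CPM. The 6 leukocyte markers summed to between 8.22 and 10.6 CPM per library, with *Adgre1*, *Cd3e* and *Itgam* too low to be tested. The 5 fibroblast markers summed to between 206 and 291 CPM, nearly all of it *Ly6a*. The part that cells of another type play in the values below was not tested. In RNA from whole cultures, fewer cells of a type and less RNA per cell cannot be told apart.

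None of the 10 genes passed the test. With edgeR's quasi-likelihood test and Benjamini-Hochberg adjustment over all 18916 genes, 0 of the 10 had an adjusted p under 0.05, as did 0% of all genes. The count at an unadjusted p under 0.05 was also 0 of 10, against 315 genes or 1.67% of all genes. DESeq2 likewise called 0 of the 10 at either threshold. Over all genes it called 4 at the adjusted threshold and 387 or 2.05% at the unadjusted one. The lowest unadjusted p of the 10 in edgeR was 0.27, for *Cnot3*, and the highest was 0.81, for *Cnot6*. Log2 fold changes ran from −0.30 for *Cnot6l* to 0.24 for *Xrn1*. In 8 of the 10 genes the change was smaller than its own standard error in this fit, which had no term for the letter. With the letter as a block in edgeR, *Cnot3*, *Cnot6l*, *Dcp1a*, *Dcp2* and *Xrn1* exceeded theirs, but none of the 10 had a p under 0.05. This comparison with the standard error was not made over all genes. The median of the 10 was 0.08, beside 0.01 over all genes tested.

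Counts of these genes were high. The smallest count of any of the 10 genes in any library was 2272, for *Dcp2* in shCTR A, where counting error alone comes to 2.10%. The standard errors of the log2 fold changes were 0.19 to 0.31, and the 95% intervals reached from −1.01 at the lowest to 0.94 at the highest. The intervals extended by 0.48 to 0.80 on either side of their estimates. A change estimated at a smaller size than its gene's extension cannot be told from no change in this fit. The test thus does not show that the genes were unaffected.

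The scaffold module comes first. *Cnot1* (chr8:95719451-95807464, minus strand, GRCm38) encodes the platform on which the complex assembles. It had 110 and 174 CPM in shCTR A and B, and 128 and 176 CPM in shMettl14 A and B. The library marked B was the higher with both hairpins, and the groups overlapped. The log2 fold change was 0.10 ± 0.31 (SE, n = 2 per group), with a 95% interval from −0.70 to 0.90.

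*Cnot2* (chr10:116485161-116581511, minus strand) and *Cnot3* (chr7:3645268-3661109, plus strand) encode the subunits that pair at the end of the scaffold. *Cnot2* had 50.6 and 67.2 CPM in shCTR A and B, and 49.2 and 62.4 CPM in shMettl14 A and B. These groups overlapped almost completely, and the log2 fold change was −0.08 ± 0.25 (SE). *Cnot3* had 46.3 and 50.2 CPM in shCTR A and B, and 42.4 and 39.7 CPM in shMettl14 A and B. Here both knockdown libraries lay below both controls, at 85.0% of the control mean, and the log2 fold change was −0.23 ± 0.19 (SE) with a 95% interval from −0.73 to 0.26. *Cnot3* overlaps other genes over 1.21% of its exon bases on its own strand and 6.07% on the opposite strand, among them *Leng1*, and 8.11% of its 100-base words also occur in transcripts of *Leng1* or *Gm9207*. *Gm9207* itself had only 18 counts over the 4 libraries.

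The catalytic subunits come as paralogs, and a read can be assigned to a single gene only where their sequences differ. *Cnot6* (chr11:49671503-49712723, minus strand) and *Cnot6l* (chr5:96070333-96164171, minus strand) encode the alternative deadenylases of the exonuclease-endonuclease-phosphatase type. Their longest identical run of coding sequence is 20 bases. It is printed here with 30 bases on either side, because it is the longest stretch of coding sequence that the genes have in common. The bases are read 5′ to 3′ along the mRNA, from the longest coding transcript of each gene in GENCODE M21 (GRCm38), and capitals mark the 16 positions at which the genes differ. The *Cnot6* stretch is exonic at chr11:49677412-49677491 and the *Cnot6l* stretch is exonic at chr5:96080045-96080124, both coding.

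Cnot6: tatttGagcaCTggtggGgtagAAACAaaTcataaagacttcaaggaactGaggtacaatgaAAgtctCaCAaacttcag

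Cnot6l: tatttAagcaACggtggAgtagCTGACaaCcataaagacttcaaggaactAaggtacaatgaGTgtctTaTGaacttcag

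Even in this window 16 of 80 bases differ, and no word of 50 or 100 bases was shared between any annotated transcripts of the genes. The same held for *Cnot7* and *Cnot8*. Neither *Cnot6* nor *Cnot6l* overlaps another gene's exons.

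*Cnot6* had 62.7 and 87.2 CPM in shCTR A and B, and 65.2 and 92.4 CPM in shMettl14 A and B. The levels followed the letter and not the hairpin, and the log2 fold change was 0.07 ± 0.28 (SE). *Cnot6l* had 26.0 and 36.9 CPM in shCTR A and B, and 22.5 and 28.8 CPM in shMettl14 A and B. It was the lower in the knockdown library within each letter, by −0.21 in A and −0.36 in B on the log2 scale, yet the groups overlapped because shMettl14 B stood above shCTR A. Its log2 fold change of −0.30 ± 0.28 (SE) had a 95% interval from −1.01 to 0.42. It was the largest of the 10 in size with TMM factors but not with library totals alone, where it was −0.18, and it ran from −0.52 without shCTR A to −0.02 without shCTR B.

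*Cnot7* (chr8:40492540-40515847, minus strand) and *Cnot8* (chr11:58104153-58118594, plus strand) encode the alternative deadenylases of the DEDD type, which also bind the Tob and Btg proteins. *Cnot7* had 43.0 and 62.9 CPM in shCTR A and B, and 47.8 and 64.1 CPM in shMettl14 A and B. It again followed the letter, with a log2 fold change of 0.08 ± 0.28 (SE). *Cnot8* had 54.4 and 51.3 CPM in shCTR A and B, and 47.0 and 51.2 CPM in shMettl14 A and B. Both knockdown libraries lay below both controls, but shMettl14 B and shCTR B differed by only −0.01 on the log2 scale, and the log2 fold change was −0.11 ± 0.19 (SE). With upper-quartile factors the *Cnot8* groups overlapped. *Cnot7* shares 4.24% of its exon bases with *Zdhhc2* on the opposite strand, and 3.99% of the 100-base words of *Cnot8* also occur in *Gm18860*.

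Decapping follows deadenylation. *Dcp2* (chr18:44380502-44424969, plus strand) encodes the enzyme that removes the cap, and *Dcp1a* (chr14:30479535-30527063, plus strand) encodes its activating partner. *Dcp1a* had 22.4 and 27.4 CPM in shCTR A and B, and 27.0 and 30.8 CPM in shMettl14 A and B. The knockdown mean was 116% of the control mean and the groups overlapped only through shCTR B and shMettl14 A, with a log2 fold change of 0.22 ± 0.22 (SE). *Dcp2* had 20.0 and 28.4 CPM in shCTR A and B, and 22.7 and 31.8 CPM in shMettl14 A and B. The shMettl14 library was the higher within each letter, by 0.18 in A and 0.17 in B on the log2 scale, while the letters differed by 0.50 with shCTR and 0.49 with shMettl14. The *Dcp2* log2 fold change was 0.17 ± 0.30 (SE).

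*Xrn1* (chr9:95954760-96057803, plus strand) encodes the cytoplasmic exonuclease that completes the pathway. It had 45.9 and 62.9 CPM in shCTR A and B, and 59.2 and 69.3 CPM in shMettl14 A and B. The groups overlapped, since shMettl14 A lay below shCTR B. The log2 fold change of 0.24 ± 0.24 (SE) was the highest of the 10 and had a 95% interval from −0.38 to 0.87. It ran from 0.04 without shCTR A to 0.48 without shCTR B. Genes on the opposite strand overlap 4.24% of the *Xrn1* exon bases. The libraries were made with a stranded kit, but the strand setting of the counting was not given in the sources used here.

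**Figure D1:**
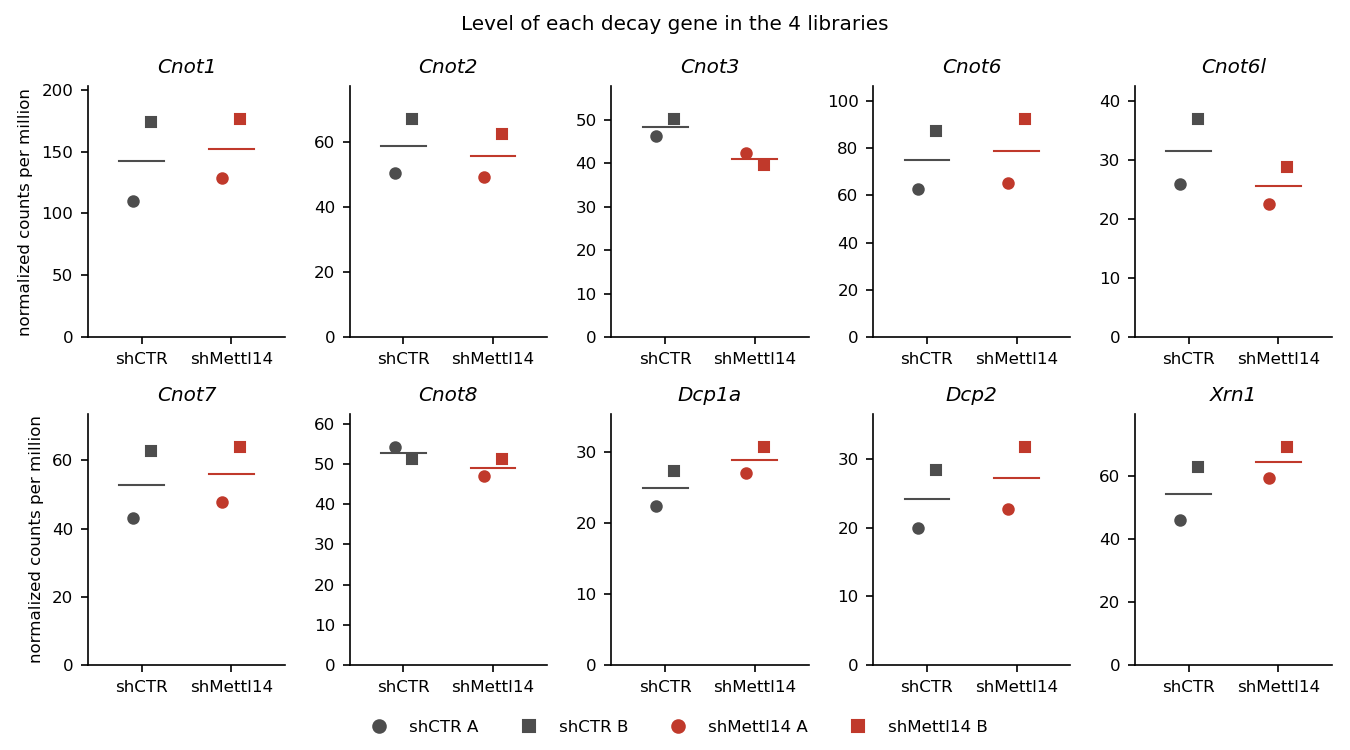
Normalized CPM (vertical axes, each from 0) of the 10 decay genes in shCTR and shMettl14 cells (horizontal axis). Circles are libraries marked A, squares are libraries marked B, and bars are group means of 2 libraries. In 8 of the 10 genes the square lies above the circle with both hairpins, the exceptions being Cnot3 and Cnot8.

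The difference between the letters was larger than the difference between the hairpins for most of these genes. In 8 of 10 genes the B library was above the A library with both hairpins, while 35.5% of all genes tested were higher in B with both hairpins and 36.7% were lower. The exceptions were *Cnot3* and *Cnot8*. With shCTR the B to A log2 ratio ran from −0.08 for *Cnot8* to 0.66 for *Cnot1*, and with shMettl14 it ran from −0.09 for *Cnot3* to 0.50 for *Cnot6*. The size of the ratio between letters, averaged over the hairpins, had a median of 0.40 over the 10 genes. The size of the ratio between hairpins, averaged over the letters, had a median of 0.15. It was the letter difference that was larger in 8 of the 10 genes, with *Cnot3* and *Cnot8* again apart. This count was not made over all genes. Over all genes, those with few counts included, A and B differed by a median of 0.51 with shCTR and 0.34 with shMettl14 in size. A letter difference of this size was thus not particular to the 10 genes. The *Cnot8* values were 0.10 between letters and 0.11 between hairpins, and the *Cnot3* values were 0.10 and 0.23. These are descriptions of 4 libraries, with no test.

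**Figure D2:**
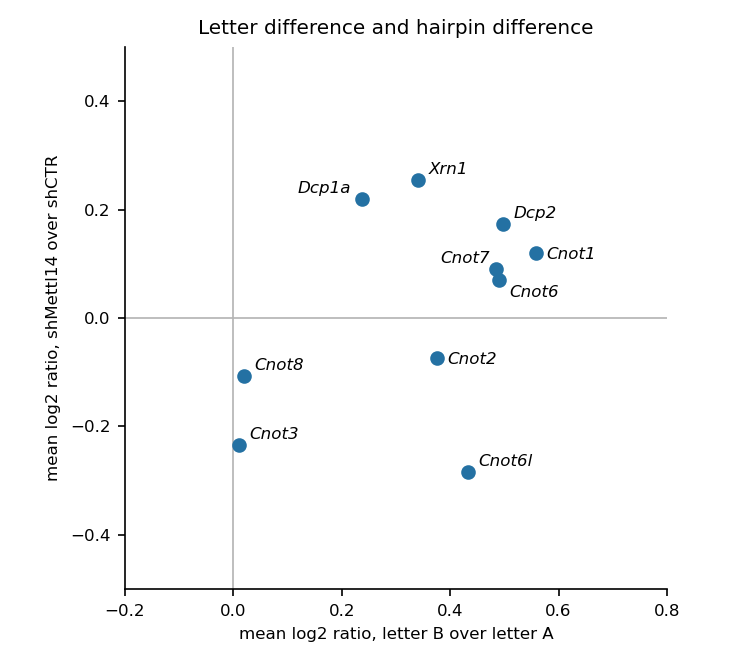
Mean log2 ratio of letter B over letter A (horizontal axis, averaged over the 2 hairpins) against the mean log2 ratio of shMettl14 over shCTR (vertical axis, averaged over the 2 letters), 1 point a gene, both axes to the same scale. Cnot1 lies farthest to the right at 0.56, and Cnot3 and Cnot8 sit close to 0 on the horizontal axis.

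With TMM factors, each gene changed in the same direction within both letters. *Cnot8* did not keep this under other scalings. Its ratio was −0.20 in A and 0.02 in B with upper-quartile factors, and −0.13 in A and 0.14 in B with library totals alone. With TMM factors, 6 of the 10 genes were higher with shMettl14 in both A and B (*Cnot1*, *Cnot6*, *Cnot7*, *Dcp1a*, *Dcp2* and *Xrn1*). The other 4 were lower in both (*Cnot2*, *Cnot3*, *Cnot6l* and *Cnot8*). Over all genes tested, 30.0% were higher within both letters and 27.7% were lower within both. The ratios were small, from −0.36 for *Cnot6l* in B to 0.37 for *Xrn1* in A on the log2 scale. In *Cnot1* the ratio was 0.22 in A and 0.02 in B, and in *Cnot7* it was 0.15 and 0.03. Groups that did not overlap were found for 2 of 10 genes, *Cnot3* and *Cnot8*, both lower with shMettl14, and for 0 of 10 in the other direction. With library totals alone they were 3, *Cnot3* lower and *Dcp1a* and *Xrn1* higher. Over all genes with TMM factors, both knockdown libraries lay below both controls in 13.3% and above both in 14.7%. These shares were not counted for library totals alone. Scaling by library totals alone moved the median log2 fold change of all genes from 0.01 to 0.12, and under it *Cnot2* stood at 0.04 and *Cnot8* at 0.00, no longer negative, while the signs of the other 8 genes were unchanged under this scaling, RLE factors and upper-quartile factors.

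**Figure D3:**
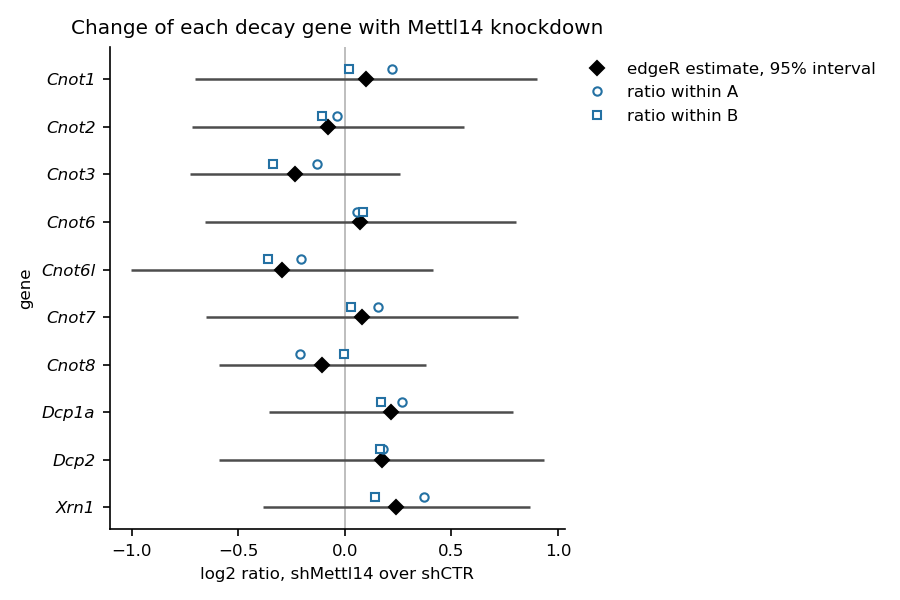
Log2 ratio of shMettl14 over shCTR (horizontal axis) for the 10 decay genes (vertical axis). Diamonds are edgeR estimates with their 95% intervals, and open circles and squares are the ratios within A and within B. All 10 intervals contain 0, and for each gene the open symbols lie on the same side of 0.

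The paralogs differed in how they compared with each other. The log2 ratio of *Cnot6* to *Cnot6l* counts was 1.27 and 1.24 in shCTR A and B, and 1.54 and 1.68 in shMettl14 A and B. Both knockdown libraries lay above both controls, and the mean differed by 0.35 (1.26 ± 0.02 for shCTR and 1.61 ± 0.10 for shMettl14, SD, n = 2 each). A two-sided exact permutation test over the 4 libraries gave p = 0.333, which is the smallest p that this test can give with 4 libraries, so it could not have passed a threshold of 0.05 whatever the values. Per kilobase of exon sequence, *Cnot6* was 3.77 and 3.69 times *Cnot6l* in shCTR A and B and 4.52 and 5.01 times in shMettl14 A and B.

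For the other pair no such separation was seen. The log2 ratio of *Cnot7* to *Cnot8* counts was −0.34 and 0.29 in shCTR A and B, and 0.02 and 0.32 in shMettl14 A and B. The ratio was the higher in B with both hairpins and the groups overlapped. The mean differed by 0.20, with an exact permutation p of 0.667, and the difference turned to −0.12 when shCTR A was left out. Per kilobase, *Cnot8* was the more abundant in all 4 libraries, with *Cnot7* at 0.36 and 0.55 times its level in shCTR A and B and 0.46 and 0.57 times in shMettl14 A and B.

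**Figure D4:**
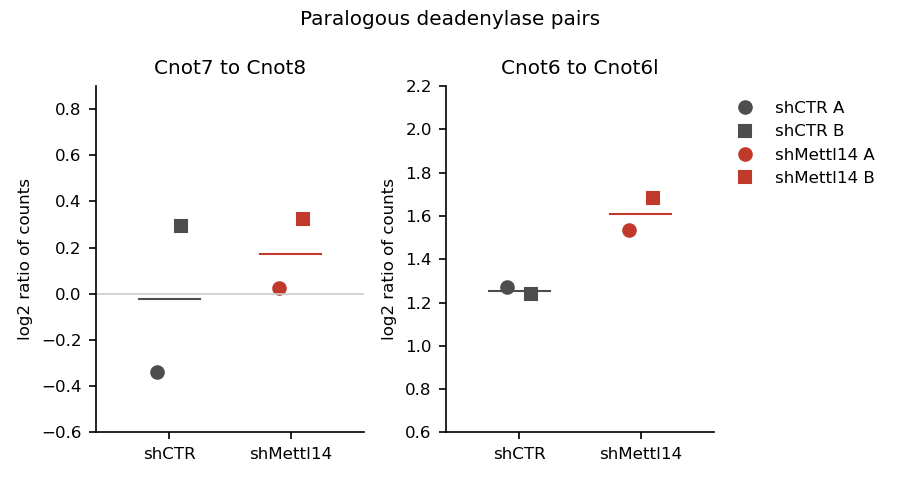
Log2 ratio of the counts of paralogous deadenylase genes (vertical axes, which do not start at 0) in shCTR and shMettl14 libraries (horizontal axis). Circles are A, squares are B, and bars are means of 2 libraries. The Cnot6 to Cnot6l ratios are 1.24 to 1.27 in controls and 1.54 to 1.68 with shMettl14, and the Cnot7 to Cnot8 ratios overlap.

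Levels can be compared between genes only per length, here as CPM per kilobase of annotated exon sequence averaged over the 4 libraries. *Cnot8* was the highest at 19.3, and its lowest library stood above the highest of *Cnot2*, the next gene, at 14.1. *Cnot6* at 11.6, *Cnot7* at 9.35, *Cnot1* at 8.58 and *Cnot3* at 6.26 followed, and from *Cnot2* to *Cnot3* each gene's libraries overlapped those of the next in the order. The lowest *Cnot3* library, at 5.57, lay above every library of the remaining 4 genes. *Dcp1a* at 3.27, *Xrn1* at 3.19, *Dcp2* at 2.96 and *Cnot6l* at 2.77 could not be ordered, as each overlapped the next. The decapping genes, the exonuclease gene and *Cnot6l* thus had lower mRNA levels per length than the other CCR4-NOT genes among the 10. This did not extend to every subunit, as *Cnot4*, outside the 10, stood at 2.95. Exon length was the union of all annotated exons, so a gene that uses short isoforms is given too low a value.

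The promoters of these genes varied in base composition. Of the 10 genes, 7 had promoters in the RefSeq table for GRCm38.p6, with 13 promoters of 300 bases in all, some of which overlap, and 7 of the 13 belonged to *Cnot6l* and *Cnot8*. They held from 3 CpG dinucleotides (*Cnot2* and *Cnot8*) to 49 (*Cnot6l*), with a median of 28 against 7 over all 32851 promoters. Their share of G and C ran from 35.0% (*Cnot2*) to 82.7% (*Cnot6l*), with a median of 65.3% against 52.7% over all promoters. On either strand, the letters TATAAA were found in 0 of the 13 (13.6% of all promoters), CACGTG in 0 (7.15% of all) and CCGGAAG in 2 (8.86% of all). The genes without an entry were *Cnot1*, *Cnot7* and *Dcp2*.

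The rest of the decay pathway was read from 7 lists holding 86 genes, of which 85 were tested. The exception was *Exosc6*, with 0 counts in all 4 libraries. Exons of *Aars* on the same strand cover 100% of its exon bases, so the 0 counts do not show that it was silent. With edgeR, 0 of the 85 had an adjusted p under 0.05 and 0 had an unadjusted p under 0.05. Over all genes tested the shares were 0% and 1.67%. DESeq2 called 0 of the 85 at either threshold, beside 4 of all genes at the adjusted one and 2.05% at the unadjusted one. The lowest edgeR p of the 85 was 0.080. Estimates were above 0 in 40 genes and below 0 in 45, with a median of −0.01, but with library totals alone 59 were above 0 and 26 below. Values for these genes are log2 fold changes with TMM factors, and their p-values come from the fit with no term for the letter. With the letter as a block, 6 of the 85 had an unadjusted edgeR p under 0.05, beside 10.3% of all genes. The medians of the poly(A)-binding, exosome and nonsense-mediated decay lists, all just below 0, were above 0 with upper-quartile factors and with library totals alone.

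Among the other CCR4-NOT subunits all 5 estimates were below 0 with a median of −0.14, though that of *Cnot10* became 0.06 with library totals alone. They ranged from −0.25 ± 0.30 (SE) for *Cnot4*, a ubiquitin ligase, to −0.06 ± 0.20 for *Cnot10*, which sits at the front end of the scaffold. The list of other deadenylases and related genes held 8, with 4 estimates on each side of 0 and a median of 0.07. With library totals alone 7 of them were above 0. The extremes were *Noct*, a Ccr4-related gene under circadian control, at −0.28 ± 0.41 and *Angel1*, another relative of Ccr4, at 0.41 ± 0.35. *Angel1* was low, at 2.62 to 4.08 CPM. Of the 19 other decapping and 5′ decay factors 8 were above 0 and 11 below, with a median of −0.05 that became 0.07 with library totals alone. *Lsm4*, a subunit of the Lsm ring that binds shortened tails, had the lowest estimate at −0.44 ± 0.25, and *Ddx6*, the helicase that links Cnot1 to decapping, had the highest at 0.29 ± 0.22.

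Adaptors, which bring deadenylases to chosen mRNAs, had the highest median of the lists, 0.18, with 14 of 21 estimates above 0. *Tnrc6a*, a partner of Argonaute that recruits CCR4-NOT to microRNA targets, had 79.4 and 102 CPM in shCTR A and B and 119 and 124.7 CPM in shMettl14 A and B. These groups did not overlap, and the log2 fold change was 0.42 ± 0.22 (SE), with an unadjusted edgeR p of 0.106. Its paralogs *Tnrc6b* and *Tnrc6c*, named here after their values were seen, stood at 0.39 ± 0.25 and 0.33 ± 0.20, also without overlap. Such groups were no rarity. Of the 85 other decay genes, 11 were higher and 10 lower without overlap, beside 14.7% and 13.3% of all genes tested. *Btg3*, which binds Cnot7 and Cnot8, had 45.9 and 62.9 CPM in shCTR A and B and 40.2 and 35.1 CPM in shMettl14 A and B. Its log2 fold change was −0.53 ± 0.24, the lowest of the 85, with an unadjusted edgeR p of 0.080. The signs of these 4 genes were the same under all 3 other scalings.

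Of the 5 poly(A)-binding proteins and partners, *Paip2*, an inhibitor of the poly(A)-binding protein, was lowest with 115 and 150 CPM in shCTR A and B and 86.3 and 101 CPM in shMettl14 A and B. The groups did not overlap, and the log2 fold change was −0.50 ± 0.23 (SE), with an unadjusted edgeR p of 0.081. Its paralog *Paip2b* was highest, at 0.21 ± 0.28, and the list's median was −0.01. The 17 exosome and SKI genes, which act on the opposite end of the message, had 7 estimates above 0 and 10 below, from −0.51 ± 0.26 for *Exosc3* to 0.22 ± 0.26 for *Exosc2*, both subunits of the exosome cap. The 10 genes of nonsense-mediated decay divided into 5 and 5, from −0.38 ± 0.28 for *Smg9* to 0.31 ± 0.30 for *Smg1*, the kinase to which Smg9 binds.

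**Figure D5:**
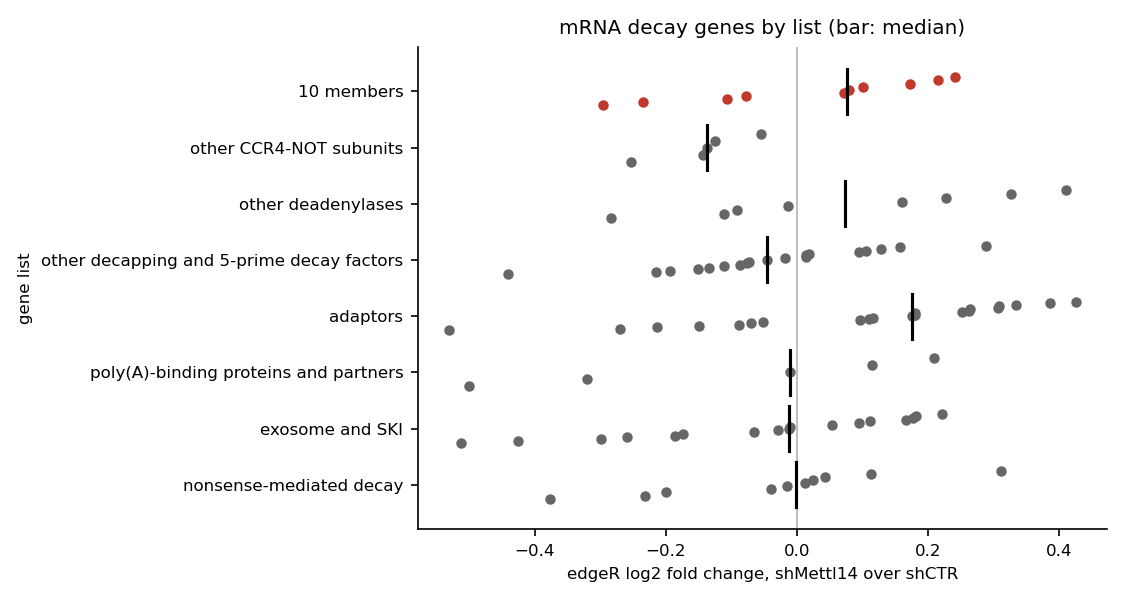
edgeR log2 fold change of shMettl14 over shCTR (horizontal axis) for the 10 decay genes (red) and the 85 other tested decay genes (gray) by list (vertical axis). Each point is a gene, spread vertically in order of its value, and vertical bars are list medians. No gene passed the test, and list medians lie between −0.14 and 0.18.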

How the data were processed

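mRNA was sequenced from 4 VSMC libraries, 2 shCTR and 2 shMettl14. Per the submitters' notes and the methods, the authors aligned reads with STAR to mm10 (GRCm38.p6) and deposited raw featureCounts read counts per gene. Strand setting and treatment of multi-mapped reads were not given in the sources used here. Counts were normalized with TMM factors, filtered with filterByExpr, and tested with edgeR 4.0.16 (robust quasi-likelihood, no block) under R 4.3.3. DESeq2 1.42.0, which the study used, was an alternative. Log2 values for single libraries used a prior count of 2. Scripts were tested on simulated data. Exon lengths came from GENCODE M21. All 10 members and *Mettl14* were described. Of the other lists, the text names each gene with an unadjusted edgeR p under 0.05, each with an adjusted p under 0.05 in any alternative, and each list's highest and lowest estimate. Members and lists were chosen with earlier results of these data known. Libraries within a group differed by a median of 0.51 (shCTR) and 0.34 (shMettl14) on the log2 scale over all genes, those with few counts included.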

Additional observations from a re-analysis of the deposited data

How the results depend on the processing

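None of the 10 genes had an adjusted or unadjusted p under 0.05 in any of the 11 other fits. The median log2 fold change of the 10 genes, 0.08, was 0.19 with library totals alone and ran from −0.15 to 0.34 when single libraries were left out. *Cnot2* became 0.037 and *Cnot8* 0.0036 with library totals alone. Leaving out single libraries changed the sign of 5 estimates, which then ran from −0.19 to 0.46 for *Cnot1*, −0.26 to 0.14 for *Cnot2*, −0.20 to 0.33 for *Cnot6*, −0.16 to 0.38 for *Cnot7* and −0.088 to 0.44 for *Dcp2*. Estimates that kept their sign ran from −0.52 to −0.022 for *Cnot6l*, −0.29 to −0.18 for *Cnot3*, −0.16 to −0.046 for *Cnot8*, 0.083 to 0.36 for *Dcp1a* and 0.036 to 0.48 for *Xrn1*. The negative values of *Cnot1*, *Cnot6*, *Cnot7* and *Dcp2* came without shCTR A or without shMettl14 B, and the positive values of *Cnot2* without shCTR B or without shMettl14 A. Where 1 library was left in a group it was assumed to vary like the other group. Without a library the *Cnot7* to *Cnot8* difference ran from −0.12 to 0.51 and that of *Cnot6* to *Cnot6l* from 0.28 to 0.43. Groups that did not overlap numbered 1 with upper-quartile factors and 3 with library totals alone, of which *Dcp1a* and *Xrn1* were higher. The cause was not tested, and shares over all genes were not counted with these 2 scalings. The letters were not stated to pair the libraries. Deviations of same-letter libraries from their group means correlated at r = 0.58 across genes, which are not independent replicates. With the letter as a replicate block, edgeR's lowest p among the 10 genes was 0.10 (*Cnot6l*), with an adjusted p of 0.60, and their 95% intervals lay between −0.64 and 0.60. All genes with an unadjusted p under 0.05 went from 315 to 1941 or 10.3%, and those with an adjusted p under 0.05 from 0 to 9. Other decay genes with an unadjusted p under 0.05 went from 0 to 6. They were *Lsm4*, *Btg3*, *Tnrc6a*, *Tnrc6b*, *Paip2* and *Exosc3*, and the lowest adjusted p among them was 0.34, for *Paip2*. *Mettl14* then stood at −2.08 with an adjusted p of 0.0039, and at −2.09 with DESeq2. With library totals alone 1 other decay gene, *Tnrc6a*, had an unadjusted edgeR p under 0.05, beside 1.78% of all genes tested.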
